A study of Arabidopsis thaliana with 30 samples.

Results

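Rosette leaves of wild-type Arabidopsis thaliana (Col-0) moved from high CO2 to ordinary air for 4 days in short days were compared with leaves of Col-0 plants that stayed at high CO2. The comparison was between 6 of the 30 arrays of the study, the 3 Col-0 arrays labelled SD4 and the 3 labelled hCO2. It covered all 22746 probe sets that were not array controls. The spread behind each test was estimated from all 30 arrays. Every plant grew in soil for 5 weeks in short days of 8 h light and 16 h dark, with a protocol value of 3000 ppm CO2, 20 °C by day and 18 °C by night, 65% relative humidity and an irradiance of 200 µmol per square metre per second. The air plants then spent 4 days at 400 ppm CO2 with the same day length, and leaves were taken 7 h into the light. The treatment label of the Col-0 high CO2 arrays gave 300 ppm where the growth protocol gave 3000 ppm, and the protocol value is used here. Each array held a pool of 2 leaves from different plants, and the 3 arrays of a group were biological replicates. The labels give both groups the same age and describe no group kept at high CO2 for the 4 extra days, so time after week 5 and the change of air cannot be told apart. The other groups used below were Col-0 after 2 days of air in short days (SD2), Col-0 after 4 days of air in long days of 16 h light (LD4), and the catalase mutant cat2-1 at high CO2 and after 4 days of air in short days, with 3 arrays each. Neither main group carried a mutation.

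In ordinary air the carbon-fixing enzyme Rubisco also takes up oxygen, and photorespiration recycles the product through chloroplasts, peroxisomes and mitochondria. Photorespiration releases hydrogen peroxide in the peroxisome, where catalase removes it, and high CO2 suppresses the pathway. Leaves at high CO2 usually make more sugar and starch. Anthocyanins are flavonoid pigments stored in the vacuole that leaves make under strong light, cold or sugar excess. Dehydrins and COR proteins protect membranes and proteins when cells cool or dry.

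The values were log2 signals made by RMA, the authors' background correction, normalization and summary of probes, so a difference of 1 is a 2-fold change. A probe set was called where limma with Benjamini-Hochberg adjustment over all 22746 gave an adjusted p below 0.05, and "rose" and "fell" are used only of called probe sets. Values after ± are the moderated standard errors of the difference from limma, with n = 3 arrays a group. They rest on a spread estimated from all 30 arrays, so they do not measure the spread of the 6 arrays compared. Values per array are given for replicates 1, 2 and 3 in that order. The leaf markers RCA, SBPASE and PRK had log2 signals between 12.73 and 14.12 on the 6 arrays, and the root hair markers EXPA7 and EXPA18 between 4.67 and 5.17. In these leaf pools fewer cells of a type and less RNA per cell cannot be told apart. Arrays of a group correlated between 0.9845 and 0.9965 in the whole study. The bacterial BioB spike-in, added during array preparation, read 7.73 to 7.96 at high CO2 and 8.14 to 8.18 in air, without overlap. For genes named below as called in Col-0 between air and high CO2, it is said where BioB as a covariate ends the call. The part of the BioB difference in the results was otherwise not tested.

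After 4 days of air 581 probe sets were called, 2.55% of those tested. Of these 356 rose (1.57%) and 225 fell (0.989%). The changes were moderate, with a median size of 0.59, and 108 reached 2-fold, 71 of them higher and 37 lower. The median difference of all probe sets was −0.0016. The 3 arrays of one group lay wholly above or below the other for 579 of the 581 calls and for 4641 probe sets in all (20.4%). Among called probe sets 311 had exactly 1 gene in the annotation (2.3% of the 13513 such probe sets), 216 higher (1.6%) and 95 lower (0.703%). The other calls had several genes (11) or were unnamed here (259). Without any 1 of the 6 arrays between 240 and 333 probe sets were called, and with BioB as a covariate 282, of which 209 were among the 581. With only the 6 compared arrays in the fit 172 were called, 158 of them among the 581. All 581 kept their sign in each of these fits.

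**Figure D1:**
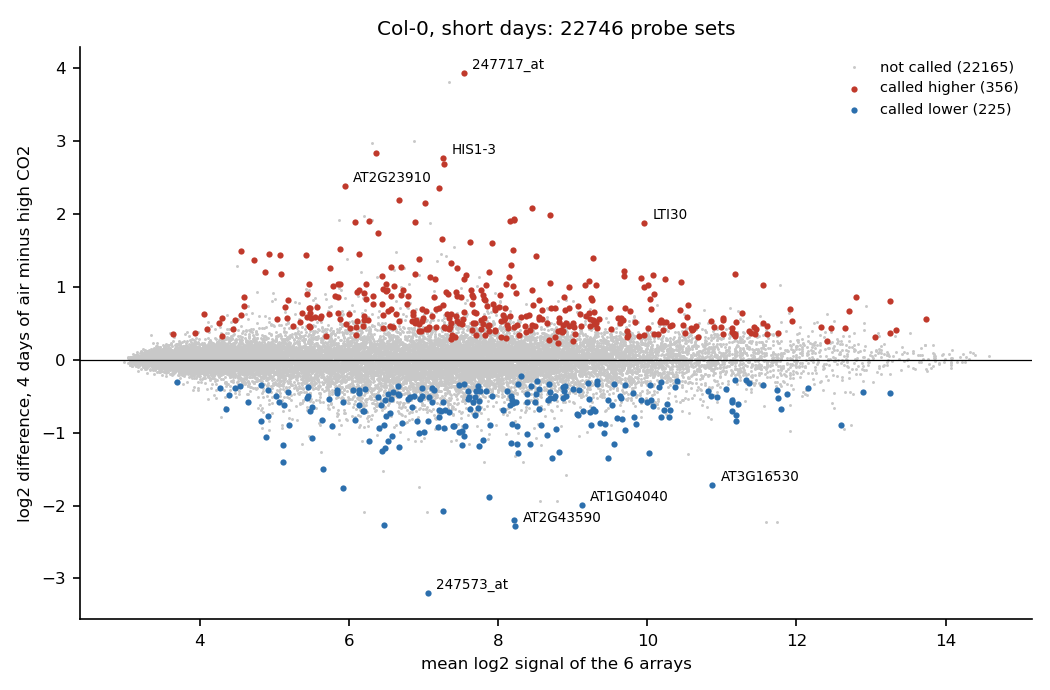
Mean log2 signal of the 6 arrays (x) against the log2 difference between 4 days of air and high CO2 (y) for 22746 probe sets. Grey points were not called, the 356 red points rose and the 225 blue points fell, and most called points lie within 1 unit of 0.

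The 12 named genes in each direction were chosen among calls whose arrays did not overlap, so their separation was set by the choice. The largest rise of a named gene was that of HIS1-3, which codes for a linker histone H1 variant induced by drought. Its log2 signal was 6.26, 5.47 and 5.89 at high CO2 and 9.26, 9.01 and 7.65 in air. All air arrays lay above all high CO2 arrays, with replicate 3 the lowest in air. The difference was 2.77 ± 0.40 or 6.8-fold (adjusted p = 0.000357, limma with Benjamini-Hochberg). AT2G23910, which codes for a protein of the NAD(P)-binding Rossmann-fold superfamily, read 4.85, 4.83 and 4.57 at high CO2 and 7.61, 6.79 and 6.99 in air. Its groups were narrow and far apart, at 2.38 ± 0.25 or 5.22-fold (adjusted p = 5.04e-06). At high CO2 AT2G23910 read within or below the range of the root hair markers, so that group lies near background. AT1G71000, which codes for a DnaJ-domain co-chaperone, read 5.96, 5.09 and 5.67 at high CO2 and 7.38, 7.68 and 8.25 in air, without overlap, a rise of 2.19 ± 0.31 (adjusted p = 0.000244).

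Other named rises belonged to genes of several kinds. AT3G05640, which codes for a type 2C protein phosphatase, read 6.67, 7.08 and 6.69 at high CO2 and 8.47, 8.31 and 8.50 in air, a rise of 1.61 ± 0.24 (adjusted p = 0.000455). PUB19, a U-box ubiquitin ligase that acts in abscisic acid and drought responses, rose by 1.46 ± 0.23 (adjusted p = 0.00111). The groups of both genes stood clear of each other. AT2G41190, of the amino acid transporter family, rose by 1.91 ± 0.40 (adjusted p = 0.0104) and AT5G15190 by 1.90 ± 0.41 (adjusted p = 0.0114). Replicate 1 was the highest air array for each, at 9.91 and 8.01, and without it their adjusted p was 0.0749 and 0.0815. AT1G16850 rose by 2.08 ± 0.34 (adjusted p = 0.00144). The largest rises of all belonged to unnamed probe sets, 247717_at at 3.93 ± 0.74 and 261077_at at 2.83 ± 0.37.

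Several genes of cold and dehydration responses rose. The list held 39 genes, 6 of them measured by a single-gene probe set, and 4 of the 6 rose (66.7%, against 1.6% of all 1-gene probe sets) and none fell. The median difference of the 6 was 0.83 against −0.0016 over all probe sets. All gene lists were chosen with earlier results of these data known, so such shares describe the lists and do not test them. LTI30, which codes for a dehydrin, read 9.01, 8.80 and 9.25 at high CO2 and 11.48, 10.52 and 10.66 in air. The groups did not overlap, and the rise was 1.87 ± 0.34 or 3.65-fold (adjusted p = 0.00284). COR47, another dehydrin gene, read 11.09, 10.91 and 11.12 at high CO2 and 12.31, 11.94 and 11.93 in air, a rise of 1.02 ± 0.24 (adjusted p = 0.0213).

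COR15B and COR15A code for proteins of the chloroplast stroma that protect membranes during freezing. COR15B read 12.29, 12.43 and 12.39 at high CO2 and 13.20, 13.27 and 13.20 in air, and its rise of 0.86 ± 0.13 had the smallest standard error of the 4 (adjusted p = 0.000896). COR15A read 12.76, 12.80 and 12.99 at high CO2 and 13.70, 13.64 and 13.63 in air, a rise of 0.81 ± 0.21 (adjusted p = 0.0334). The air arrays of both genes lay within 0.1 of each other and above every high CO2 array. The genes are neighbours of similar sequence, so their probe sets may share signal. LEA4-5, which codes for a late embryogenesis abundant protein, was not called at 0.46 ± 0.44. STZ, a zinc finger gene of stress responses, was not called at −0.09 ± 0.33. The call of COR15A was lost without any 1 array (adjusted p from 0.0615 to 0.117) and with BioB (adjusted p = 0.16), and that of COR47 without any 1 array other than air replicate 2 (0.054 to 0.104). LTI30 and COR15B kept their calls in all of these fits.

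The anthocyanin and flavonol list, also chosen with earlier results of these data known, held 25 genes, of which 7 were measured. Of these 4 rose (57.1%, against 1.6% of all 1-gene probe sets) and none fell, with a median of 1.45. The 4 code for enzymes that attach sugars or malonyl groups to anthocyanins and related flavonoids, and all 4 calls ended without air replicate 1 and with BioB as a covariate. AT4G14090, which codes for the anthocyanin 5-O-glucosyltransferase, read 6.06, 5.43 and 6.61 at high CO2 and 9.45, 7.91 and 7.79 in air. UF3GT, which adds xylose to anthocyanins, read 5.74, 5.83 and 6.28 at high CO2 and 9.27, 7.47 and 7.56 in air. AT5MAT, the anthocyanin malonyltransferase, read 4.26, 3.98 and 4.36 at high CO2 and 6.48, 5.21 and 5.26 in air. For each gene the groups stood apart and air replicate 1 was well above replicates 2 and 3. At high CO2 AT5MAT read below the root hair markers, so that group lies near background.

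The differences were 2.35 ± 0.57 for AT4G14090 (adjusted p = 0.0241), 2.15 ± 0.51 for UF3GT (adjusted p = 0.0226) and 1.45 ± 0.31 for AT5MAT (adjusted p = 0.011). UGT78D2, a flavonoid 3-O-glucosyltransferase, rose by 0.95 ± 0.21 (adjusted p = 0.0147), again with replicate 1 the highest in air at 8.69 against 7.67 and 7.95. DFR codes for dihydroflavonol reductase, the first enzyme committed to anthocyanins. It read 4.95, 4.36 and 5.17 at high CO2 and 9.27, 6.98 and 7.15 in air. The difference of 2.97 ± 0.88 was not called (adjusted p = 0.072, limma with Benjamini-Hochberg). The high CO2 group of DFR also lies near background. The flavonol glycosyltransferase genes UGT78D1 (−0.02 ± 0.20) and UGT78D3 (0.14 ± 0.09) were not called. Without air replicate 1 the differences of AT4G14090, UF3GT, AT5MAT and UGT78D2 were 1.82, 1.56, 1.03 and 0.65 (adjusted p = 0.137, 0.141, 0.0815 and 0.104), so the list had no call. It had 1 without either high CO2 replicate 1 or 2, and 0 with BioB.

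**Figure D2:**
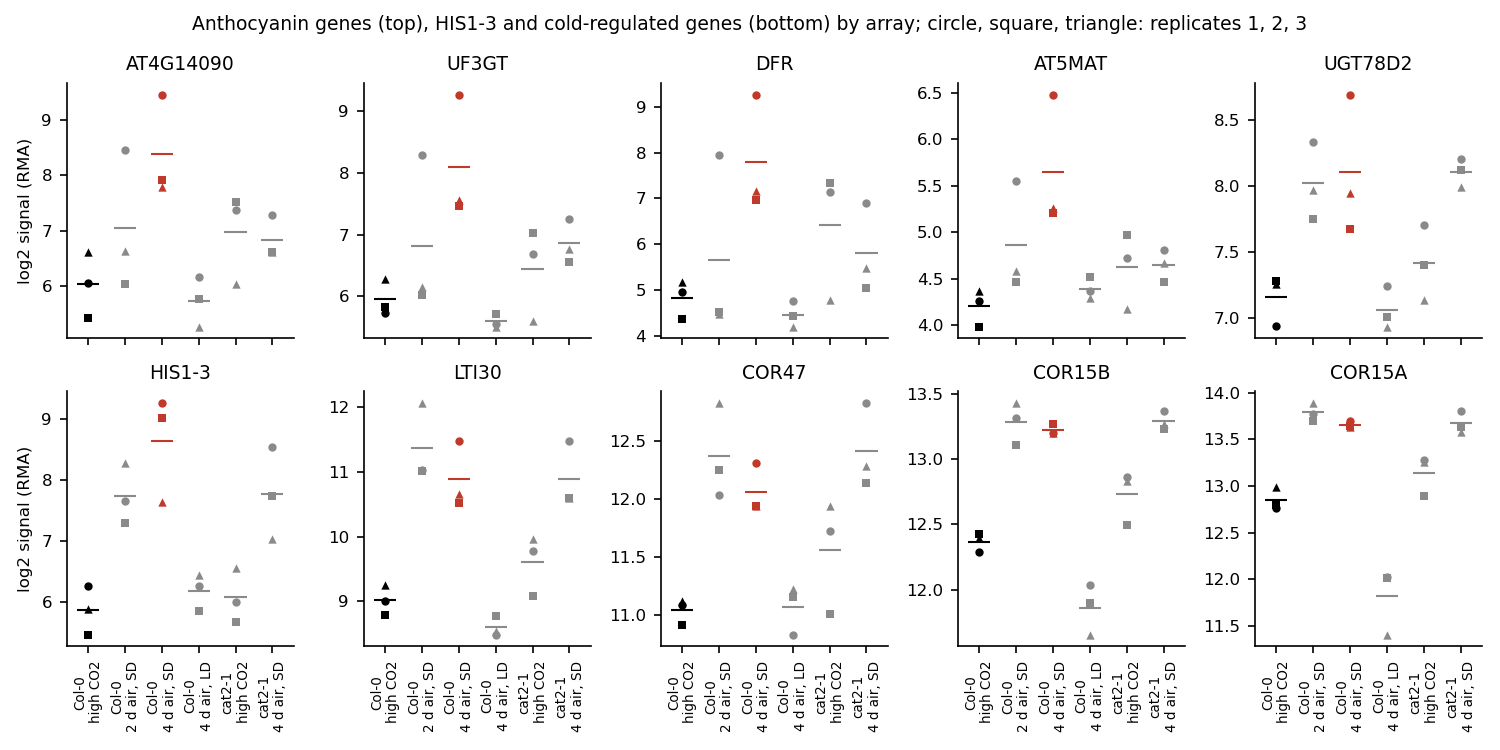
Log2 signal (y) of 5 anthocyanin genes and of HIS1-3 and 4 cold-regulated genes in 6 groups of 3 arrays, with bars for group means, short days as SD and long days as LD. Black marks Col-0 at high CO2 and red Col-0 after 4 days of air, where replicate 1 (circle) is the highest array of each anthocyanin gene. In LD the means of LTI30, COR15A, COR15B, AT4G14090, UF3GT and DFR lie below those at high CO2, and those of HIS1-3 and AT5MAT lie above.

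Among the falls, the largest of a named gene was that of AT2G43590, which codes for a protein of the chitinase family. It read 10.50, 8.88 and 8.71 at high CO2 and 7.17, 7.25 and 6.82 in air. High CO2 replicate 1 was far above the others, and the difference was −2.29 ± 0.48 (adjusted p = 0.0104, limma with Benjamini-Hochberg). AT1G04040, an acid phosphatase gene of the HAD superfamily, read 10.13, 10.43 and 9.79 at high CO2 and 8.10, 7.93 and 8.35 in air. Its groups were narrow, and it had the smallest adjusted p of the 12 named falls. It fell by 1.99 ± 0.19 (adjusted p = 1.79e-06), which is 3.98-fold. AT5G44020, a gene of the same family, fell by 1.34 ± 0.25 (adjusted p = 0.00329).

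AT3G23550, which codes for a MATE efflux transporter, read 10.23, 8.44 and 9.28 at high CO2 and 6.82, 8.09 and 6.45 in air. Its groups came close without overlapping, and the difference was −2.20 ± 0.51 (adjusted p = 0.019). AT5G40450 read 9.03, 9.04 and 8.41 at high CO2 and 7.25, 6.98 and 6.59 in air, a difference of −1.89 ± 0.30 (adjusted p = 0.000941). AT3G16530, a legume lectin gene, read 12.35, 11.16 and 11.66 at high CO2 and 9.70, 10.70 and 9.62 in air, a difference of −1.72 ± 0.36 (adjusted p = 0.00994).

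The remaining named falls lay between −1.50 and −1.17. AT1G53430, which codes for a leucine-rich repeat receptor kinase, fell by 1.17 ± 0.19 (adjusted p = 0.00107), and AT2G15042, of the leucine-rich repeat family, by 1.21 ± 0.28 (adjusted p = 0.0169). The cytochrome P450 gene CYP71B22 read 7.10, 6.95 and 7.14 at high CO2 and 5.71, 5.92 and 5.82 in air, the narrowest groups among these falls, with a difference of −1.25 ± 0.24 (adjusted p = 0.00475). AT5G41140 (−1.50 ± 0.37), the glycosyltransferase gene UGT71C3 (−1.40 ± 0.31) and AT4G24350, of the nucleoside phosphorylase superfamily (−1.27 ± 0.29), also fell. In air UGT71C3 read 4.30, 4.56 and 4.36, below the root hair markers, so that group lies near background. AT5G41140 read 5.43, 4.61 and 4.68 in air, also close to those markers. Of the unnamed probe sets 247573_at was at −3.20 ± 0.79 and 258487_at at −2.27 ± 0.24.

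Of the 12 named falls 7 lost their call without high CO2 replicate 1 (AT2G43590, AT3G23550, AT3G16530, AT5G41140, UGT71C3, AT4G24350 and AT2G15042) and 7 without air replicate 3, the same 7 genes. AT3G23550, AT3G16530 and UGT71C3 also lost it without air replicate 1, AT5G41140 and AT4G24350 without air replicate 2, AT3G23550 and AT5G41140 without high CO2 replicate 3, and AT5G41140 without high CO2 replicate 2. The adjusted p of these 7 was then 0.0539 to 0.133. The probe set 247573_at lost its call without replicate 1 or 3 of either group (adjusted p from 0.08 to 0.163) and with BioB. With BioB as a covariate 6 of these 7 lost it, all but AT2G43590, and AT2G15042 moved from −1.21 to −0.59.

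**Figure D3:**
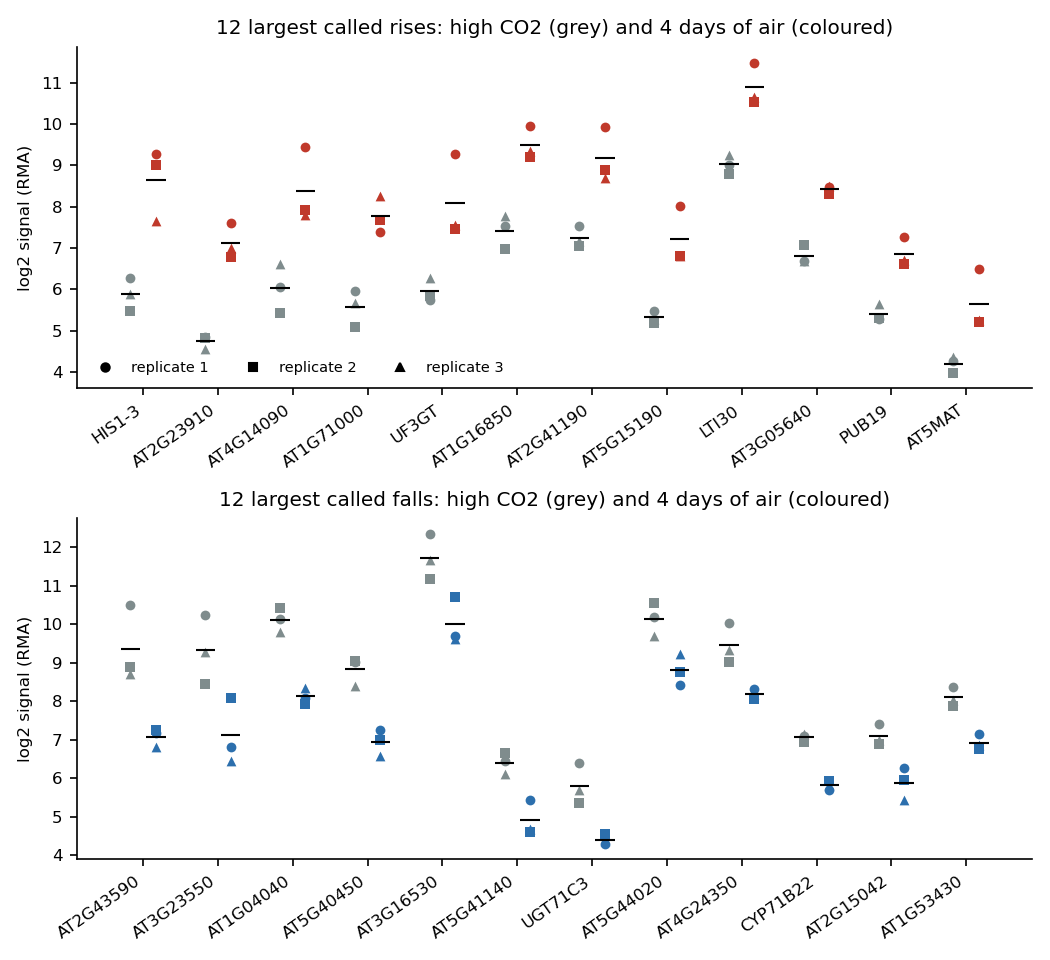
Log2 signal (y) of the 12 named genes that rose most (top) and fell most (bottom), with a point per array, a bar for each group mean and marker shapes for replicates. Grey is high CO2 and colour is 4 days of air. The 24 genes were chosen so that neither group overlaps the other.

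UDP-glycosyltransferases, enzymes that attach sugars to small molecules, were taken as the 47 measured genes whose symbol begins with UGT. Of these 3 rose and 3 fell (12.8% called, against 2.3% of all 1-gene probe sets), with a median of −0.06. Enzymes of the family listed under other names, such as AT4G14090, UF3GT and AT2G31790, are not in this count. UGT85A5 read 6.05, 5.93 and 5.95 at high CO2 and 7.20, 6.94 and 6.92 in air, without overlap, a rise of 1.04 ± 0.18 (adjusted p = 0.00191, limma with Benjamini-Hochberg). UGT71B1 rose by 0.54 ± 0.12 and UGT85A4 fell by 0.77 ± 0.19. UGT74B1, which makes the core of glucosinolates, the sulfur-rich defence compounds of this family, fell by 0.55 ± 0.14 (adjusted p = 0.0274). In the glucosinolate list 2 of 3 measured members fell (66.7%, against 0.703% of all 1-gene probe sets). The other was AT2G31790 at −0.46 ± 0.12 (adjusted p = 0.0406), while BCAT4, of methionine chain elongation, was not called at −0.41 ± 0.23. The count of 6 called glycosyltransferases was 1 without high CO2 replicate 1, 1 without air replicate 1, 2 without air replicate 3 and 1 with BioB, the remaining one there being UGT85A5. With BioB the difference of UGT74B1 was −0.26 (adjusted p = 0.365) and that of AT2G31790 −0.28 (adjusted p = 0.366). AT2G31790 also lost its call without any 1 array (adjusted p from 0.0511 to 0.16).

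APS3, which codes for ATP sulfurylase, the entry enzyme of sulfate assimilation, read 9.69, 9.21 and 9.37 at high CO2 and 8.44, 8.79 and 8.82 in air. Every air array was below every high CO2 array, and the fall was 0.75 ± 0.13 (adjusted p = 0.00191, limma with Benjamini-Hochberg). APS3 was the only call among the 3 measured genes of the sulfur list (33.3% lower, against 0.703% of all 1-gene probe sets). SIR, the sulfite reductase of the same pathway, was not on that list and is named here after its value was seen. It read 11.16, 11.02 and 11.13 at high CO2 and 10.39, 10.67 and 10.75 in air, without overlap, a fall of 0.50 ± 0.09 (adjusted p = 0.00325). APS3 and SIR kept their calls with BioB and without any 1 array. SWEET11, a sucrose exporter of phloem cells and the only phloem marker measured, fell by 0.58 ± 0.14 (adjusted p = 0.0286). LHCB4.3, a minor antenna protein of photosystem II, rose by 0.55 ± 0.13 (adjusted p = 0.027), while LHCB4.1 (0.07 ± 0.06) and LHCB4.2 (−0.02 ± 0.07) were not called. The call of LHCB4.3 ended without any 1 array (adjusted p from 0.0527 to 0.142) and that of SWEET11 without replicate 1 or 3 of either group (adjusted p from 0.0906 to 0.137). With BioB their adjusted p was 0.239 and 0.163.

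The plastid genome had 69 measured genes, a list drawn up after the values had been seen, and 3 rose (4.35%, against 1.6% of all 1-gene probe sets) and none fell, with a median of 0.13. The 3 are neighbours on that genome, in the order petL, petG, psaJ. The petG gene, for a small subunit of the cytochrome b6f complex, read 8.38, 7.30 and 6.88 at high CO2 and 8.60, 8.67 and 9.17 in air, a rise of 1.29 ± 0.31 (adjusted p = 0.024). High CO2 replicate 1 came close to the lowest air array without overlap. The petL gene, of the same complex, read 11.79, 11.43 and 11.50 at high CO2 and 12.30, 12.28 and 12.23 in air, a rise of 0.70 ± 0.13 without overlap. The rise of psaJ, a photosystem I subunit, was 0.36 ± 0.09. The next genes, rpl33 (0.10 ± 0.11) and rps18 (0.32 ± 0.13), were not called. The count of 3 was 5 without high CO2 replicate 1, 2 without air replicate 1 and 1 without any 1 of the other 4 arrays. With BioB petG was at 0.90 (adjusted p = 0.25), while petL and psaJ kept their calls. In all 9 pairs of called named genes were neighbours in the gene table used here, of 5882 measured pairs, 6 with both higher, 1 with both lower and 2 in opposite directions. With 2.3% of 1-gene probe sets called, some such pairs arise without any link, and whether 9 is more was not tested.

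The 9 genes of the ATG8 family, which code for the lipid-linked proteins of autophagosome membranes, had no call here, although all 9 differences were positive, from 0.15 to 0.53 with a median of 0.32. The largest were ATG8B at 0.53 ± 0.24 (adjusted p = 0.317) and ATG8G at 0.48 ± 0.22 (adjusted p = 0.313). Photorespiration had 0 calls among 7 measured genes, with differences from −0.22 to 0.30. HPR, the peroxisomal hydroxypyruvate reductase, read 12.51, 12.57 and 12.57 at high CO2 and 12.75, 12.55 and 12.73 in air, so that the groups overlapped at 0.13 ± 0.11. The plastid glycolate and glycerate transporter, listed as LrgB, was at 0.30 ± 0.14 (adjusted p = 0.338). The Calvin cycle had 0 calls of 3, starch metabolism 0 of 7, sugar starvation 0 of 6, antioxidant enzymes 0 of 6 and oxidative stress markers 0 of 5. Closest to a call in these lists was GR1, a glutathione reductase, at −0.51 ± 0.15 (adjusted p = 0.0694). Apart from ATG8 each of these lists was measured only in part, so an absence of calls speaks only of the measured members. Of all 1-gene probe sets 2.3% were called, so 0 calls in lists this small is near that share. These counts therefore do not show that the pathways lacked a response.

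The defensin gene PDF1.2, a target of jasmonate signalling, had the largest negative difference in the jasmonate list. It read 13.72, 11.64 and 12.74 at high CO2 and 11.24, 9.32 and 10.88 in air. The groups stood apart by less than their own spread, and −2.22 ± 0.76 was not called (adjusted p = 0.134). JMT, which methylates jasmonate, was at −0.15 ± 0.29. The immune genes WRKY53 (−0.47 ± 0.48), SAG101 (−0.36 ± 0.28) and BIK1 (−0.09 ± 0.14) were not called.

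**Figure D4:**
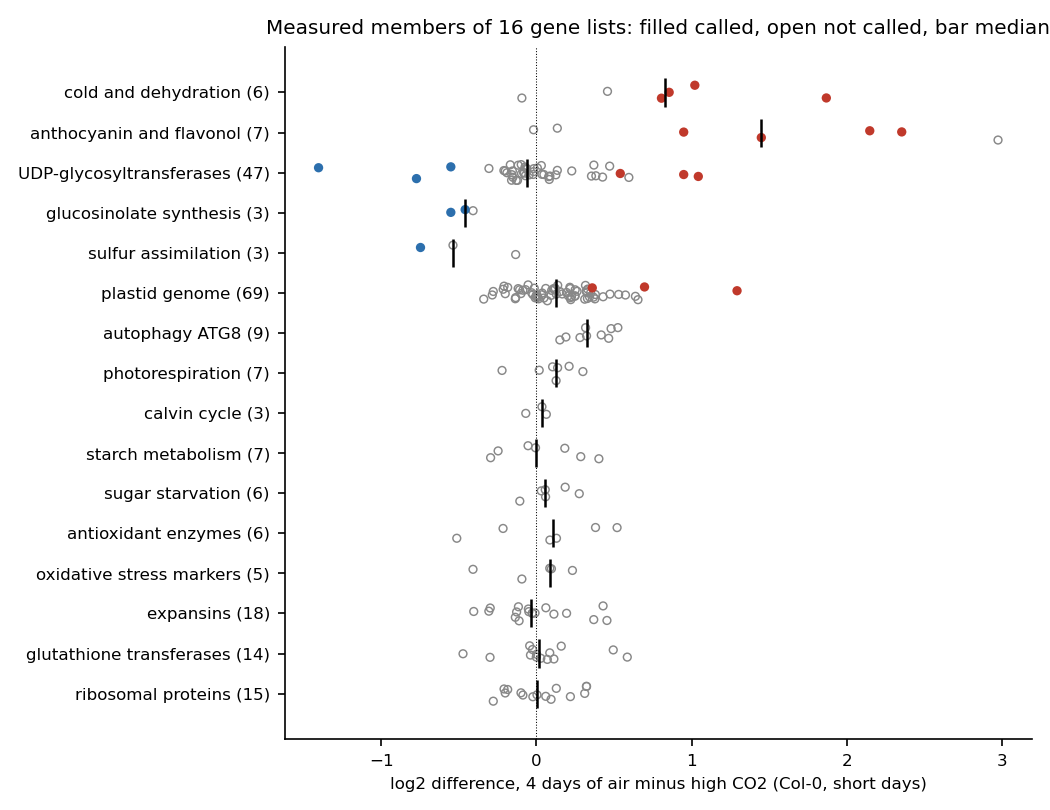
Log2 difference between 4 days of air and high CO2 (x) for every measured member of 16 gene lists, with the number measured in brackets. Filled points were called, open points were not, and vertical bars are list medians, which lie at 0.83 for cold and dehydration and 1.45 for anthocyanin and flavonol.

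Day 4 was compared with day 2 directly, since both days share the high CO2 arrays. Few differences were called, 11 probe sets or 0.0484%, while 2872 had an unadjusted p under 0.05. Of these 10 were lower on day 4 (0.044%) and 1 was higher (0.0044%). AT4G28140 and AT1G64380, both coding for AP2/ERF transcription factors, were lower. AT4G28140 read 7.37, 7.89 and 8.37 on day 2, 6.66, 6.18 and 6.29 on day 4 and 5.14, 5.02 and 5.21 at high CO2. Day 4 was thus below day 2 on every array and above high CO2 on every array, at −1.50 ± 0.26 against day 2 (adjusted p = 0.027, limma with Benjamini-Hochberg) and 1.26 ± 0.26 against high CO2 (adjusted p = 0.00994). The call against high CO2 ended with BioB (adjusted p = 0.057) and without day 4 replicate 1 (adjusted p = 0.0594). AT1G64380 was at −1.17 ± 0.22 (adjusted p = 0.0444) and AT5G53710 at −1.30 ± 0.22 (adjusted p = 0.0186). The only higher probe set, the unnamed 247224_at, read 3.81, 3.67 and 3.92 on day 2 and 4.42, 5.79 and 5.70 on day 4 (adjusted p = 0.0186). With array weights 567 were called, 350 higher and 217 lower, so that the balance of directions turned. The count was 18 without day 2 replicate 1 and 1 to 7 without any other array. It was 0 when only these 6 arrays were fitted by limma, with 3242 at an unadjusted p under 0.05.

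The genes named above had these differences from high CO2 on day 2, beside which no likeness is drawn because the control arrays were shared. Day 2 against high CO2 had 4546 calls (20%). BioB read 8.14 to 8.37 on day 2 and 7.73 to 7.96 at high CO2, again without overlap. No fit of day 2 against high CO2 with BioB is given here. HIS1-3 was at 1.87 ± 0.40 on day 2 and LTI30 at 2.35 ± 0.34. AT1G04040 was at −2.27 ± 0.19 and AT2G43590 at −1.45 ± 0.48. AT4G14090 was at 1.01 ± 0.57 on day 2 (adjusted p = 0.231) and UF3GT at 0.87 ± 0.51 (adjusted p = 0.255), both not called, and replicate 1 was again the highest array, at 8.45 against 6.04 and 6.63 for AT4G14090. None of the 24 named genes was called between the days, with HIS1-3 at 0.90 ± 0.40 (adjusted p = 0.37) and AT4G14090 at 1.35 ± 0.57 (adjusted p = 0.346).

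Day length after 4 days of air was a larger contrast, with 3062 probe sets called between LD4 and SD4 (13.5%), 1618 higher (7.11%) and 1444 lower (6.35%) in long days. The count was 2013 without SD4 replicate 3. BioB read 7.45 to 7.99 in LD4 and 8.14 to 8.18 in SD4, without overlap. With BioB as a covariate 2056 were called, 1552 of them among the 3062. Which genes named in this contrast kept their call with BioB is not given here. Cold genes were lower in long days in 4 of 6 measured members. COR15A read 13.70, 13.64 and 13.63 in short days, and its difference of long minus short days was −1.84 ± 0.21 (adjusted p = 1.28e-06, limma with Benjamini-Hochberg), COR15B was −1.36 (adjusted p = 2.51e-07) and LTI30 −2.29 ± 0.34 (adjusted p = 4.48e-05). Of the 7 anthocyanin and flavonol genes 6 were lower in long days, AT4G14090 at −2.65 ± 0.57 and DFR at −3.34 ± 0.88 (adjusted p = 0.0116).

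The named genes of this contrast began with AT1G31690, which codes for a copper amine oxidase. It read 9.57, 8.85 and 9.59 in short days and 5.34, 6.25 and 5.24 in long days, a difference of −3.72 ± 0.51, although it differed by only 0.02 ± 0.51 between air and high CO2 in short days. AT1G71000 was the next, at −3.36 ± 0.31. The genes highest in long days were AT2G41250, of the HAD hydrolase superfamily (2.75 ± 0.42), and AT4G27450 (2.75 ± 0.45) and AT3G15450 (2.34 ± 0.22), which code for related aluminium-induced proteins and were not called between air and high CO2 in short days (0.43 ± 0.45 and 0.03 ± 0.22). PUB19 (−0.47 ± 0.23) and AT3G05640 (−0.11 ± 0.24) were not called between day lengths.

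The same move to air in cat2-1, measured on 6 other arrays, gave 2812 calls (12.4%). Of the 581 probe sets called in Col-0, 557 had the same sign in cat2-1 (95.9%, against 67.9% of all probe sets). In cat2-1 381 were called in the same direction, which is 65.6% of the Col-0 calls and 13.5% of the cat2-1 calls. Across the 581 the 2 sets of differences had a Pearson r of 0.81, and across all probe sets 0.57, a description over genes that are not independent. Arrays of the genotypes with the same replicate number also deviated together at SD4 (r from 0.31 to 0.63). At high CO2 replicates 2 and 3 did so too (r of 0.66 for each), but replicate 1 did not (−0.09). The sets may thus share more than the treatment. The median size was 0.59 in Col-0 and 0.50 in cat2-1, and because the 581 were chosen by their change in Col-0 no difference is read from these sizes.

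Whether the move to air acted differently in cat2-1 was tested by the interaction. It was called for 203 probe sets (0.892%), 188 of them positive (0.827%), meaning a more positive change in cat2-1, and 15 negative (0.0659%). With array weights 953 were positive and 718 negative. With the 25S ribosomal RNA signal as a covariate 133 were positive and 4 negative, and with single arrays left out 4 to 44 were negative. Of the 581 Col-0 calls 26 had a called interaction, a count that is not independent because both tests use the same Col-0 arrays. The unnamed 258487_at read 7.65, 7.71 and 7.45 at high CO2 and 5.38, 5.22 and 5.42 in air in Col-0. In cat2-1 it read 7.66, 7.95 and 8.16 at high CO2 and 8.36, 7.74 and 7.33 in air, so it fell in Col-0 and was not called in cat2-1 (−0.11 ± 0.24), with an interaction of 2.16 ± 0.34 (adjusted p = 0.000597, limma with Benjamini-Hochberg). The xyloglucan endotransglycosylase gene EXGT-A3, AT5G65660 and the unnamed 250248_at were the 3 probe sets called in opposite directions, chosen here after their values were seen. EXGT-A3 was at −0.55 in Col-0 and 0.67 in cat2-1, with AT5G65660 at −0.53 and 0.68 and 250248_at at −0.43 and 0.85. The Col-0 calls of EXGT-A3 and AT5G65660 were lost without any 1 array other than high CO2 replicate 3, and that of 250248_at without any 1 other than air replicate 1 (adjusted p from 0.0629 to 0.273). With BioB that of EXGT-A3 was kept, and those of AT5G65660 (adjusted p = 0.198) and 250248_at (adjusted p = 0.143) were lost.

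The named Col-0 genes mostly lacked a called interaction. HIS1-3 rose by 1.68 ± 0.40 in cat2-1, AT2G23910 by 1.72 ± 0.25 and LTI30 by 1.28 ± 0.34, with interactions of −1.08 ± 0.57, −0.66 ± 0.35 and −0.59 ± 0.48. AT4G14090 was at −0.14 ± 0.57 in cat2-1 and AT5MAT at 0.02 ± 0.31, where neither was called. Their interactions of −2.49 ± 0.80 (adjusted p = 0.256) and −1.42 ± 0.44 (adjusted p = 0.204) were not called either, so a difference between genotypes was not shown for these genes. AT4G14090 in cat2-1 read 7.37, 7.51 and 6.04 at high CO2, wider than the Col-0 group. AT1G71000 rose by 3.14 ± 0.31 in cat2-1, from 7.44, 6.49 and 7.65 to 10.44, 10.15 and 10.40, with an interaction of 0.94 ± 0.44 that was not called.

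**Figure D5:**
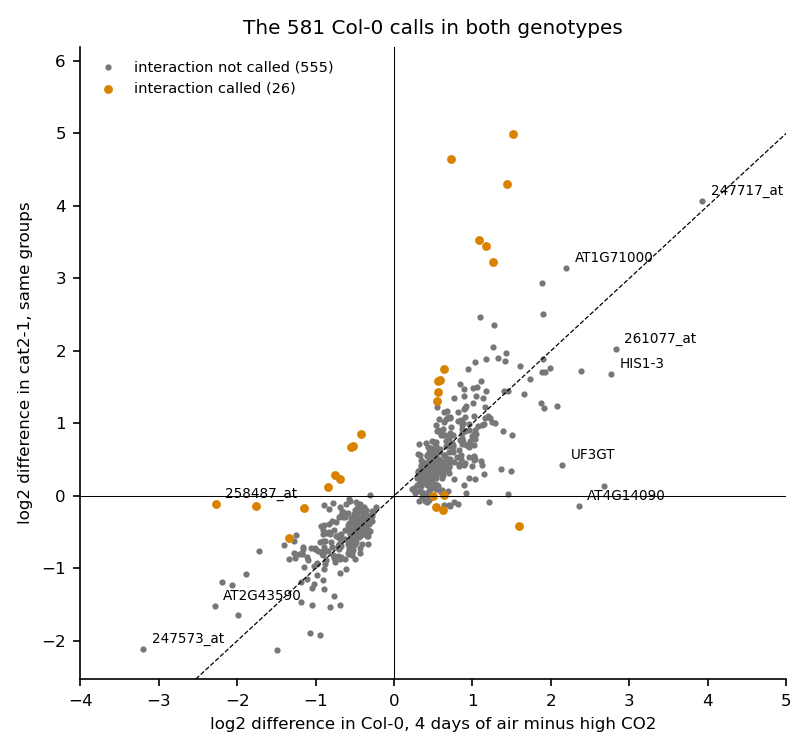
Log2 difference between 4 days of air and high CO2 in Col-0 (x) and in cat2-1 (y) for the 581 probe sets called in Col-0, with the dashed line at equal differences. The 26 orange points had a called interaction, and 258487_at lies at −2.27 in Col-0 and −0.11 in cat2-1.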

How the data were processed

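Total RNA from leaf pools was hybridised to 30 Affymetrix ATH1 arrays, 3 for each of 10 groups. The authors deposited log2 signals and name RMA and affy in their processing notes, with no version that was given in the sources used here. These log2 values, as deposited by the authors, entered the fit unchanged, and 0 array columns lay outside the labelled samples. The number of arrays limits the precision. Hybridisation batches and dates are not given in the sources used here.

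Of 22810 probe sets 64 controls were set aside. In the platform annotation 13513 of the 22746 tested had exactly 1 gene, 503 had several, and 8730 were unnamed here. Of the 13513, 13436 matched a locus of the RefSeq table of assembly TAIR10.1, giving 13350 distinct genes. Only 1-gene probe sets were named. The linear model of limma 3.58.1 (R 4.3.3) had 10 group means over all 30 arrays, with moderated tests and Benjamini-Hochberg adjustment within each comparison. The fit was tested on simulated data. Figures were drawn with matplotlib.

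The named genes were the 12 called 1-gene probe sets of largest difference in each direction whose arrays did not overlap, 3 in each direction in the other comparisons, up to 2 unnamed probe sets in each direction, and list members (up to 6 called and up to 3 not called a list, with more given by range). Genes outside this rule are said to be so. The comparisons, gene lists and tests were chosen with earlier results of these data known. Carbonic anhydrase, nitrogen assimilation and xylem, epidermis, seed and flower marker lists had 0 measured members.

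Same-numbered arrays of Col-0 at SD4 and hCO2 had residual correlations of 0.18, −0.54 and −0.42, so no pairing was used. Alternatives were another scaling, a filter of dim probe sets, a replicate block, other variance settings, array weights, quality covariates, the compared arrays alone, single arrays left out and 1 probe set per gene.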

Additional observations from a re-analysis of the deposited data

Results flagged for a closer look

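A test of the difference between genotypes marked 203 probe sets whose change from high CO2 to 4 days of air in short days was not the same in Col-0 and cat2-1 (limma interaction with Benjamini-Hochberg). The largest positive interaction was that of AT5G51440, which codes for a mitochondrial small heat shock protein, at 4.79 ± 0.25. In Col-0 it read 3.97, 4.10 and 4.44 at high CO2 and 4.21, 4.80 and 4.21 in air, so the groups overlapped, while in cat2-1 its mean went from 4.05 at high CO2 to 9.08 in air, with air arrays of 9.20, 8.90 and 9.14. The bHLH gene AT1G10585 had an interaction of 4.57 ± 0.57, with 0.55 ± 0.40 in Col-0, and AT4G01870 one of 4.02 ± 0.48, with 0.75 ± 0.34 in Col-0. None of these 3 was called in Col-0 alone.

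The most negative interactions of named genes were AT5G57760 at −1.48 ± 0.27, AT2G48030 at −0.87 ± 0.17 and the RING-type gene AT3G47180 at −0.83 ± 0.19. In Col-0 their differences were 0.03, −0.05 and 0.16, none of them called. The unnamed 258487_at, at 2.16 ± 0.34, differed in the other way, with a fall in Col-0 and no call in cat2-1.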

How the results depend on the processing

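The 24 named genes kept their direction in every fit run, and all kept their call after a further quantile normalization, centring of arrays, robust variances, array weights, the actin or 25S covariate and 1 probe set per gene, as did the 23 that passed the filter of dim probe sets. With BioB as a covariate 9 lost it, and with only the 6 compared arrays 11. Calls for air against high CO2 numbered 282 with BioB, 2195 with array weights, 298 with 1 probe set per gene and 172 with only the compared arrays, and ranged from 240 to 333 with single arrays left out. With the replicate block on all 30 arrays 614 were called, 546 of them among the 581. With the replicate block and only the compared arrays 0 were called by limma for air against high CO2, for day 4 against day 2 and for long against short days, with 2574, 3393 and 3130 at an unadjusted p under 0.05. Day 4 against day 2 had 18 calls after centring, 567 with array weights, 2 with 1 probe set per gene, 0 with only the compared arrays and 1 to 18 with single arrays left out. Long against short days had 2056 calls with BioB, 1571 with 1 probe set per gene, 1314 with only the compared arrays and 2013 to 3297 with single arrays left out. The interaction had 1671 with array weights, 137 with the 25S covariate, 86 with 1 probe set per gene and 147 to 270 with single arrays left out. Fewer arrays or genes by construction lower some of these counts, and for the others the cause was not tested. DFR was called with array weights (2.71, adjusted p = 0.029). Signals near background limit dim probe sets.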
